A study of Mus musculus with 10 samples.

Results

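Gm15441, Txnip and Arrdc4 are 3 of the 51911 genes in a table of liver transcript levels, taken by symbol. They comprise an antisense transcript, the protein-coding gene on the opposite strand and that gene's relative of the arrestin family. All 3 passed the filter on low counts, as did 13619 genes in all. The members were chosen by symbol and selected on their levels and fold changes between these genotypes, so their differences between genotypes are given as values without a test. The RNA came from livers of C57BL/6 mice fed a high-fat diet (HFD) for 8 weeks, with 5 samples of wild type and 5 of the genotype labelled Cpt1a L-/-, a liver knockout of Cpt1a. Both genotypes received the diet, and there is no group on another diet. The labels used here do not name the driver of the deletion or the age of the mice.

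Txnip encodes thioredoxin-interacting protein, an arrestin-fold protein that binds reduced thioredoxin and lowers glucose uptake by promoting the removal of glucose transporters from the cell surface. Its transcription responds to sugar through the paired factors ChREBP (gene Mlxipl) or MondoA (gene Mlxip) and Mlx, which bind repeated E-box-like letters in its promoter, and Arrdc4 is known as a target of the same factors. Gm15441 is a long non-coding RNA that has been described in mouse liver as induced by PPARα, the nuclear receptor for fatty acids, and as acting against Txnip and the NLRP3 inflammasome. Cpt1a encodes the enzyme that admits long-chain fatty acids to mitochondrial oxidation. Its level in CPM, read counts scaled to library size, was 430.1 ± 85.8 (SD, n = 5) in wild type livers, and the knockout livers had 80.0 ± 9.19 (SD, n = 5). Cpt1a fell by 2.43 ± 0.16 (SE) on the log2 scale (edgeR adjusted p = 1.92e-05), and the genotypes did not overlap.

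Library totals lay between 20599099 and 26955958 counts. The CPM values include TMM factors, which correct for differences in composition between libraries. The hepatocyte markers summed to between 46170 and 78400 TPM, a level scaled to transcript length, in wild type and between 47500 and 70800 TPM in knockout livers, so the markers of the labelled tissue were abundant in each library. The other marker lists were far lower, from 508 to 682.3 TPM in wild type and 434.3 to 695.8 TPM in knockout livers for Kupffer cells and macrophages, and from 31.1 to 122.6 TPM and 23.1 to 53.4 TPM for cholangiocytes. Endothelial markers summed to between 116 and 213.5 TPM over the 10 libraries, stellate markers to between 70.1 and 160.3 TPM, and lymphocyte and neutrophil markers to between 9.23 and 37.1 TPM. Of all marker genes in the table, 1 of 8 cholangiocyte markers stayed below 0.1 TPM in each library, and no marker of the other lists did. In bulk liver, fewer cells of a type and less RNA per cell cannot be told apart.

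Gm15441 (ENSMUSG00000074398) lies on the minus strand of chromosome 3 at 96555765 to 96566801 of GRCm38, and Txnip (ENSMUSG00000038393) on the plus strand at 96557957 to 96561883, wholly inside it. The GENCODE M21 annotation gives Gm15441 a transcript of 1653 bases and another of 659 bases. The longer has 606 bases (36.7%) on exons of Txnip, 327 of them on its coding sequence, and the shorter has 0. The overlap covers 441 bases at the first exon of Txnip and all 165 bases of another exon of Gm15441, which lies inside exon 5 of Txnip. That exon of Txnip (GRCm38, chr3:96559589-96559845, plus strand) is shown because reads from its capital letters can come from either gene. The 165 capital letters, at 96559678 to 96559842, are the stretch that Gm15441 carries as the reverse complement, with 165 of 165 bases equal.
Txnip exon 5: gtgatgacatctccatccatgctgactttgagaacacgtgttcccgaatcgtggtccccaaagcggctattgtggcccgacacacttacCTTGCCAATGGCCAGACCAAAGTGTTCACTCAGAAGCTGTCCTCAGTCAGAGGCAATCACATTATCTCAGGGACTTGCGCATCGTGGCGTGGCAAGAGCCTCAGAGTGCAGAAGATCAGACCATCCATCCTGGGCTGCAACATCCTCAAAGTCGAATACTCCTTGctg

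**Figure D1:**
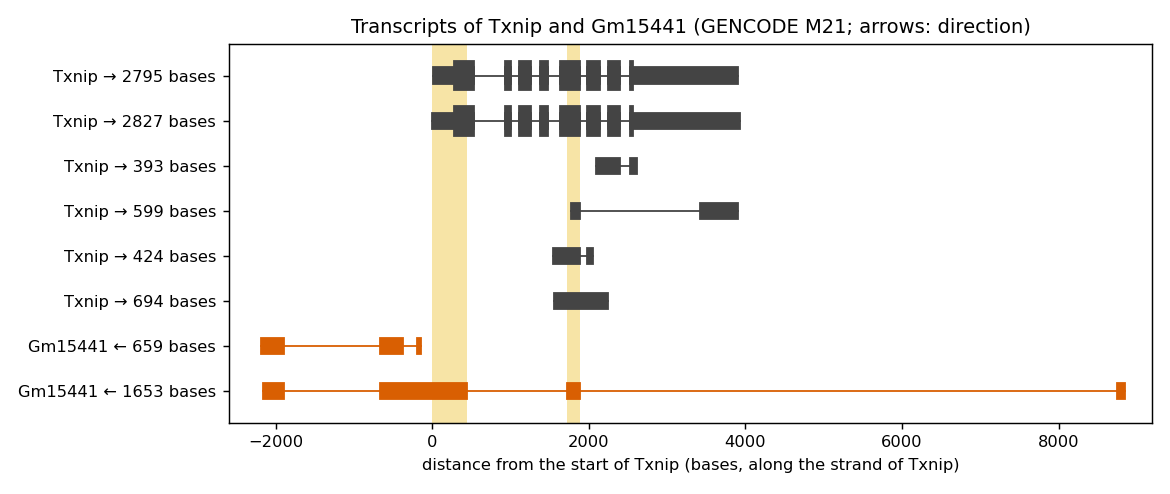
Annotated transcripts of Txnip (dark grey) and Gm15441 (orange), with exons as boxes, coding parts as taller boxes and the distance in bases from the start of Txnip on the horizontal axis. The yellow bands mark the 441 and 165 bases where exons of both genes coincide; the Gm15441 transcript of 659 bases lies outside both.

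The counts of the overlapping genes were tied to each other. The deposited estimated count of Gm15441 was not whole in 9 of 10 libraries, and neither was that of Txnip, yet their sum was whole, within 0.011, in 10 of 10. In wild type replicate 1 the counts were 13.59 and 2590.41, which add to 2604, and in knockout replicate 1 they were 235.81 and 4639.19, which add to 4875. In knockout replicate 2 both were whole, at 344 and 1845. Each gene's own count was thus a fractional part of a whole sum in 9 libraries. The whole values in knockout replicate 2 are estimated counts too. As the genes lie on opposite strands, the reads divided between them were not told apart by strand. The labels do not say whether strand was kept. The count of Arrdc4, which lies on chromosome 7, was whole in each library.

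Gm15441 was at 0.622, 0.731, 0.583, 0.964 and 0.636 CPM in wild type replicates 1 to 5. In knockout replicates 1 to 5 it was at 9.78, 15.7, 5.23, 10.97 and 3.21 CPM. Every knockout library lay above every wild type library, with replicate 5 the lowest of the knockouts, and no wild type library reached 1 CPM. The wild type mean was 0.707 ± 0.15 CPM and the knockout mean 8.98 ± 4.93 CPM, and the fitted log2 fold change was 3.65 ± 0.41 (SE). The spread inside the knockout group was wide, with a coefficient of variation of 54.9% against 21.7% in wild type. Over all tested genes, edgeR called 0.132% at an adjusted p under 0.05 (18 of 13619; 0.0808% higher and 0.0514% lower in the knockout), and 1.05% had ranges that did not overlap between genotypes. Gm15441 is the 1 of 3 members called, as higher in the knockout, and the 1 of 3 without overlap. This follows from the comparison on which the members were selected and is no test of it. The authors' deposited table gives it a lower log2 fold change, 1.49, and the source of the difference was not tested.

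**Figure D2:**
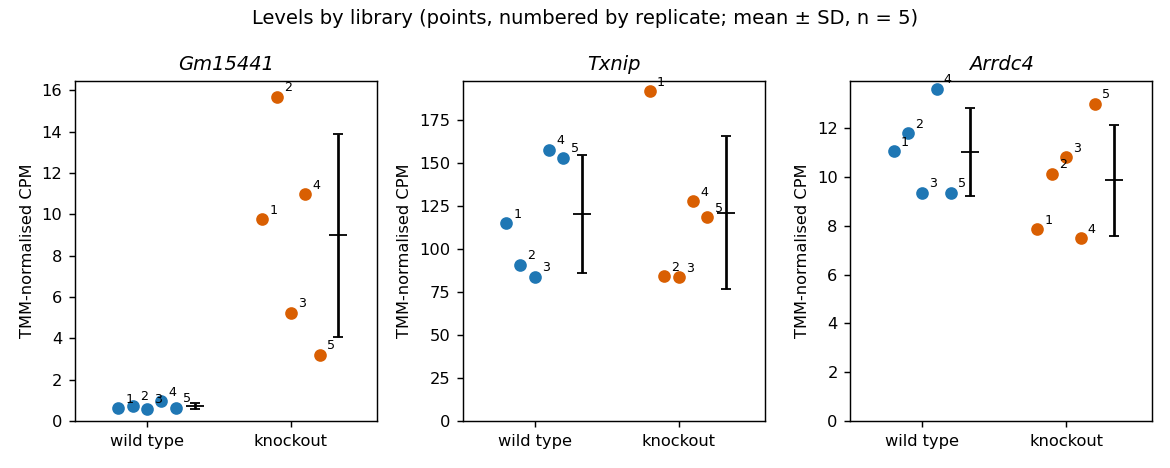
TMM-normalised CPM of Gm15441, Txnip and Arrdc4 in the 5 wild type and 5 knockout libraries, as points numbered by replicate beside the mean ± SD. Gm15441 lies below 1 CPM in wild type and between 3.21 and 15.7 CPM in the knockout, while the genotypes overlap in Txnip and Arrdc4.

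Per length, Gm15441 stood below the middle of the tested genes in wild type livers and above it in the knockout. Its TPM level was 0.972 ± 0.45 TPM in wild type and 12.6 ± 5.95 TPM in knockout livers, which ranked 10958 and 4165 among the 13619 genes. Wild type libraries ranged from 0.47 to 1.68 TPM and knockout libraries from 4.42 to 17.3 TPM. In wild type these values rest on between 13.25 and 26.78 estimated reads per library.

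The deposited counts and TPM values also hold which of the Gm15441 transcripts the reads were assigned to. A count divided by its TPM is proportional to the mean transcript length behind it, less a number of bases. The proportion and the bases taken off, 270 to 289 by library, were set on 408 to 500 genes with 1 annotated transcript. Of these genes 352 to 440 lay within 5% of the line. The implied length of Gm15441 was 855, 1013, 1034, 999 and 1055 bases in knockout replicates 1 to 5, between the lengths of its 2 transcripts. With the 2 annotated transcripts this puts 126, 114, 45.2, 102 and 24 reads on the shorter one, which has no base on a Txnip exon, and 110, 230, 100, 191 and 58.6 reads on the longer one. The implied length varied more in wild type, at 798, 1030, 1504, 909 and 976 bases in replicates 1 to 5. In wild type the shorter one was given between 0.656 and 12.1 reads and the longer one between 5.02 and 14.7. The genotypes did not overlap for either transcript. All but 23 bases of the shorter transcript also lie in the longer one, so this division is an estimate.

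Txnip itself was a well expressed gene, at 56.2 ± 18.0 TPM in wild type and 56.3 ± 17.5 TPM in knockout livers, ranks 1375 and 1416. It stood at 115, 90.9, 84.1, 158 and 153.4 CPM in wild type replicates 1 to 5. The knockout values were 192.2, 84.2, 83.8, 128.1 and 118.5 CPM. The genotypes overlapped, and knockout replicate 1 was highest. In CPM the lowest was knockout replicate 3, just under wild type replicate 3, whereas in TPM it was knockout replicate 2 at 34.2 TPM. The log2 fold change was 0.01 ± 0.25, and its sign turned in 6 of 19 alternative fits. Leaving out 1 library moved it between -0.22 (without knockout replicate 1) and 0.13 (without wild type replicate 4).

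Set against Txnip library by library, Gm15441 was a trace in wild type and a sizeable fraction in the knockout. By TPM it amounted to 1.63, 2.02, 1.20, 2.30 and 1.38% of Txnip in wild type replicates 1 to 5. In knockout replicates 1 to 5 it amounted to 21.1, 47.3, 16.9, 29.2 and 7.50%. Every knockout library lay above every wild type library, and the knockouts differed widely among themselves. The mean ratio was 1.71 ± 0.45% (SD, n = 5) in wild type, and in the knockout it was 24.4% with a coefficient of variation of 61.5%. From counts per length it was 1.05 ± 0.26% and 14.1 ± 10.6%, a lower level with the same separation.

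In CPM the order of the libraries differed between the 2 genes. Knockout replicate 2 had the highest Gm15441 level in CPM, at 15.7 CPM, with Txnip at 84.2 CPM, the second lowest of the knockout libraries. Knockout replicate 3 had nearly the same Txnip level, 83.8 CPM, with Gm15441 at 5.23 CPM. Knockout replicates 4 and 5 were close in Txnip, at 128.1 and 118.5 CPM, and apart in Gm15441, at 10.97 and 3.21 CPM. In wild type, replicates 4 and 5 had the highest Txnip levels, and their Gm15441 levels were 0.964 and 0.636 CPM. The order depended on the unit. By TPM, knockout replicate 1 was the highest knockout in both genes, at 82.0 TPM of Txnip and 17.3 TPM of Gm15441. Knockout replicate 2 was the lowest knockout in Txnip, at 34.2 TPM, with Gm15441 at 16.2 TPM. Among wild types by TPM, replicates 4 and 5 were highest and replicates 2 and 3 lowest in both genes. Since the genotypes form separate groups in Gm15441 and each holds 5 libraries, no correlation with Txnip was tested. The sum of both genes was 121 ± 34.4 CPM for wild type livers, and without Cpt1a it was 130.4 ± 44.5 CPM, with the genotypes overlapping.

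**Figure D3:**
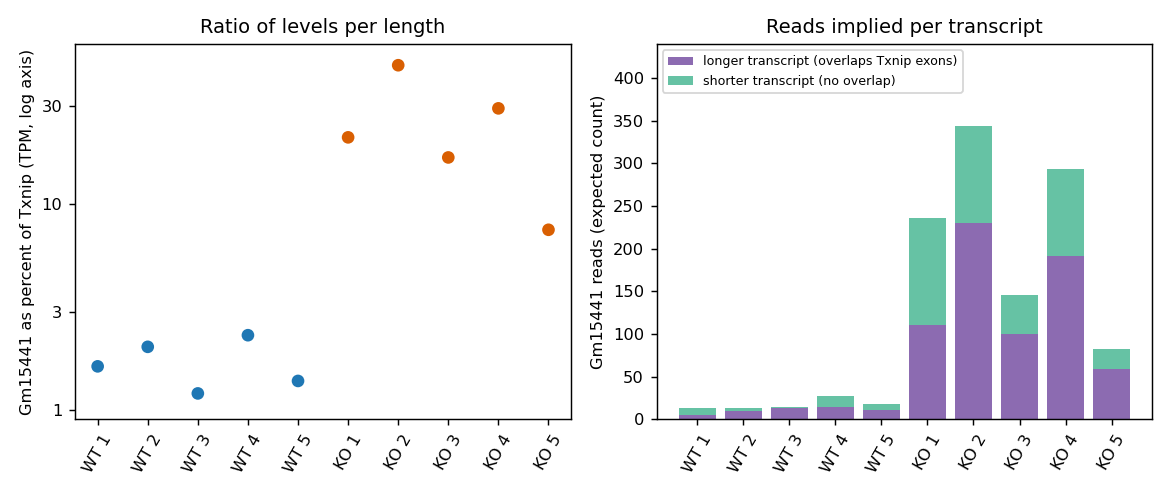
Left, Gm15441 as a percent of Txnip by TPM in each library, on a log axis; right, the reads of Gm15441 per library divided between its longer and shorter transcript as implied by count and TPM. The wild type ratios lie between 1.20 and 2.30% and the knockout ratios between 7.50 and 47.3%, and both transcripts take more reads in each knockout library than in any wild type library.

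Arrdc4 encodes an α-arrestin that, like Txnip, is known to act on glucose transport. It was scarce beside Txnip, at 3.29 ± 0.51 TPM in wild type and 3.35 ± 0.84 TPM in knockout livers, or 6.30 ± 1.92% and 6.46 ± 2.39% of the Txnip level. It was at 11.1, 11.8, 9.37, 13.6 and 9.37 CPM in wild type replicates 1 to 5. The knockout replicates 1 to 5 stood at 7.87, 10.1, 10.8, 7.49 and 13.0 CPM. The genotypes overlapped, although the 2 lowest libraries were knockouts 1 and 4. The log2 fold change was -0.16 ± 0.17, and it stayed below 0 in 19 of 19 alternative fits, all of them on counts, from -0.28 without knockout replicate 5 to -0.07 with unscaled library totals or without wild type replicate 4. By TPM the direction of the means turned, at 1.02 times the wild type level.

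The promoters of Txnip and Arrdc4 share an arrangement of letters. The 250 bases before the start of each gene are shown from the RefSeq promoter table (GRCm38.p6), Txnip at chr3:96557707-96557956 on the plus strand and Arrdc4 at chr7:68749239-68749488 on the minus strand. Capitals mark CCAAT on either strand (ATTGG on the other), CACGTG, and a paired form, CACGNG and CACGNG with 5 bases between them. Gm15441 was not matched in that table. The first exon of its shorter transcript, 60 bases at 96557756 to 96557815, lies inside the Txnip stretch.
Txnip: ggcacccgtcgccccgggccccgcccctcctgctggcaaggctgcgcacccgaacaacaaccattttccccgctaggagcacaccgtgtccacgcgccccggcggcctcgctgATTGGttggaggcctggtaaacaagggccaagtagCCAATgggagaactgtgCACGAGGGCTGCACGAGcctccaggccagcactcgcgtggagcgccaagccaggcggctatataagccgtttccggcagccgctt
Arrdc4: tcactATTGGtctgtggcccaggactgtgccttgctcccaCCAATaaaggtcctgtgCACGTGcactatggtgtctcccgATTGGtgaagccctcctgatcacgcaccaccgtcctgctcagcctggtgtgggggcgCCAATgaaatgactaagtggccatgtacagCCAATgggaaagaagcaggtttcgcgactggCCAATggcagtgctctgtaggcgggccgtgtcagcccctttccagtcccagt

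Txnip has CCAAT at -137 (as ATTGG) and -102 from its start, and the paired form at -85 to -69, spelled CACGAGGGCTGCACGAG. Arrdc4 has CCAAT at -245 (as ATTGG), -210, -170 (as ATTGG), -113, -83 and -52, and CACGTG at -193. In both promoters ATTGG is followed after 30 bases by CCAAT and after a further 12 bases by CACGNG. This arrangement, chosen after the letters were seen and searched on both strands, occurs in 2 of 32851 promoters of the same length (0.00609%), these 2. CCAAT occurs in 33.8% of promoters and at least 2 times in 10.1%, and 6 or more times in 0.0578%. CACGTG occurs in 6.02% and the paired form in 0.0457%. The paired form and CACGTG can overlap in other promoters but do not here. AGGTCA repeated after 1 base, a form of the PPARα site, occurs in 0.0335% and was in neither of these windows. A match of letters does not show that a factor binds there.

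No correlation of Txnip with Arrdc4 across libraries was detected. Over the 10 libraries Pearson's r of their log2 CPM was -0.22 (two-sided permutation p = 0.536) and Spearman's rho was -0.14 (permutation p = 0.707). This was the only relation of this kind tested. Without knockout replicates 1 and 3, the libraries farthest from the median of Txnip, r was 0.12 (exact permutation p = 0.787, n = 8). After the genotype means were taken out it was -0.24 (permutation p = 0.506). Knockout replicate 1, with the highest Txnip level of 192.2 CPM, had an Arrdc4 level of 7.87 CPM, and wild type replicate 4 was high in both.

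The genes whose pattern was most like that of Txnip were sought among 9736 genes whose log2 CPM averaged 2 or more, by Pearson's r over the 10 libraries with genotype means taken out. They were Nr1d1 (r = 0.94), Bhlhe40 (0.91), Frmd6 (0.89), Sf3b4 (0.89), Nrde2 (0.89) and Slc3a2 (0.88). Nr1d1 encodes the clock repressor REV-ERBα and Bhlhe40 a further repressor of the circadian clock that is also in the list of ChREBP and MondoA targets described later, while Slc3a2 encodes the heavy chain of amino acid transporters. Nr1d1 was at 78.3, 53.7, 60.7, 86.0 and 84.7 CPM in wild type replicates 1 to 5. It was at 91.6, 51.1, 51.1, 84.5 and 67.1 CPM in knockout replicates 1 to 5. The library with the most Txnip thus also had the most Nr1d1, and the 4 libraries under 100 CPM of Txnip were the 4 lowest in Nr1d1. As the best of 9736 genes these values are a description and carry no test, and the labels used here do not give the time of day of sampling. Arrdc4 came at rank 6506 for likeness to Txnip (r = -0.24), where the middle gene had 0.03 and the central 90% of genes ran from -0.59 to 0.65.

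**Figure D4:**
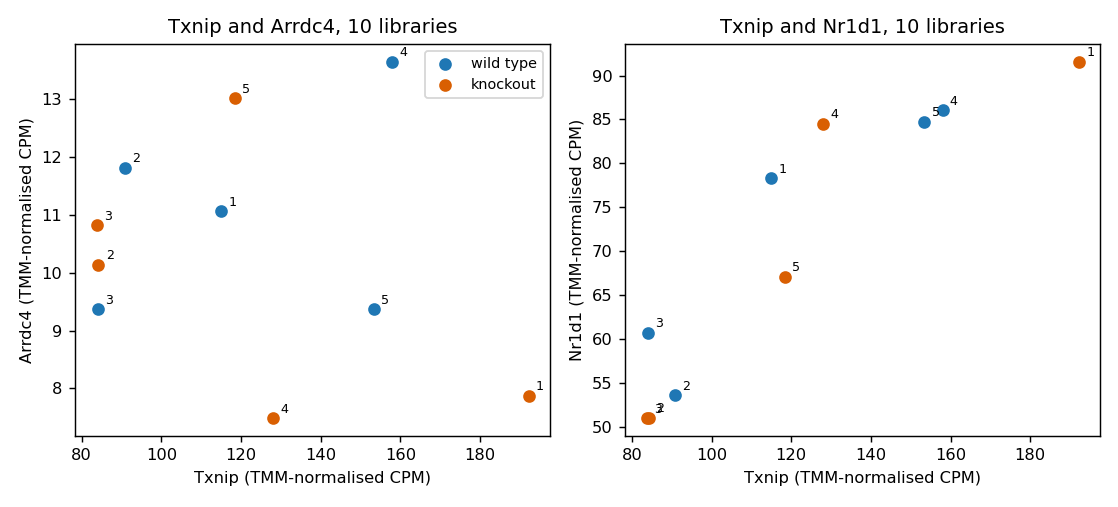
Txnip level against Arrdc4 (left) and against Nr1d1 (right) in TMM-normalised CPM, with each of the 10 libraries as a point coloured by genotype and numbered by replicate. Arrdc4 shows no common trend with Txnip, while Nr1d1 runs from 51.1 CPM to 91.6 CPM with its lowest values where Txnip was lowest.

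The genes most like Gm15441 by the same measure were Aasdhppt (r = 0.96), Mitd1 (0.94), Siah1a (0.94), Psmd12 (0.93), Wtap (0.93) and Fam49b (0.92). With genotype means taken out, these values rest mainly on the knockout libraries, where log2 CPM of Gm15441 ran from 1.72 to 3.98. In wild type it ran from -0.59 to 0.06. Aasdhppt, which encodes a phosphopantetheinyl transferase, was highest in knockout replicate 2 at 20.4 CPM and lowest in knockout replicate 5 at 9.06 CPM, the knockout libraries with the highest and lowest Gm15441 CPM. In TPM the highest Gm15441 level was in knockout replicate 1, at 17.3 TPM against 16.2 TPM in replicate 2. In the wild type libraries Aasdhppt lay between 14.8 and 18.3 CPM. Txnip came at rank 3293 for likeness to Gm15441 (r = 0.12) and Arrdc4 at rank 7887 (r = -0.41). Those most like Arrdc4 were Pdhb (0.90), a subunit gene of pyruvate dehydrogenase, Stbd1 (0.89), which encodes a glycogen-binding protein, Spata2l (0.89), the sterol sensor gene Insig1 (0.87), the chaperone gene Dnajb1 (0.87) and the lipogenic gene Thrsp (0.87), which is also in that list of sugar-responsive targets.

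The largest shared variation among libraries, the first principal component (34.2% of the variance), put knockout replicates 2, 3 and 5 with wild type replicates 1 and 2 on the positive side and the remaining 5 libraries on the negative side. On the positive side Txnip lay between 83.8 and 118.5 CPM and Arrdc4 between 10.1 and 13.0 CPM. On the negative side Txnip lay between 84.1 and 192.2 CPM and Arrdc4 between 7.49 and 13.6 CPM, with wild type replicate 4 the only one above 9.37 CPM. The part of this division in the likeness values was not tested.

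The sugar-sensing factors did not differ detectably between genotypes. Mlxipl was at 146.5 ± 28.3 and 151.9 ± 43.6 CPM, Mlxip at 8.25 ± 0.90 and 9.56 ± 1.71 CPM, and their partner Mlx at 33.8 ± 5.87 and 31.7 ± 4.31 CPM, with log2 fold changes of 0.05 ± 0.21, 0.21 ± 0.15 and -0.09 ± 0.14 (edgeR adjusted p = 1.0 each). Of 25 other measured targets of these factors, 22 were negative, with a median log2 fold change of -0.50 where all tested genes had -0.02. Of all 13619 tested genes, 7537 were negative. None of the list passed edgeR over all genes. An unadjusted p under 0.05 was found for 10 of the 25, a larger share than the 4.82% of all tested genes. DESeq2 called 4 of the list, where it called 0.634% of all its tested genes, and limma-voom called 1, where it called 0.176%. Those with the smallest p were Thrsp, at 437.7 ± 133 and 157.7 ± 53.9 CPM (log2 fold change -1.47 ± 0.27, edgeR adjusted p = 0.067), and Pklr, the liver pyruvate kinase gene, at 244.6 ± 76.4 and 111.1 ± 26.6 CPM (-1.14 ± 0.22, adjusted p = 0.094). The list mean of these targets was 0.87 in wild type replicate 4, where its group otherwise ran from -0.01 to 0.11. It was -0.54 in knockout replicate 2, where its group otherwise ran from -0.18 to -0.10. Txnip and Arrdc4, at 0.01 and -0.16, lay nearer to 0 than the median of this list.

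Among 37 measured PPARα targets, Gm15441 left out, 32 were positive with a median log2 fold change of 0.24, and 2 passed edgeR over all genes, both higher in the knockout, where 0.0808% of all tested genes passed in that direction. Cyp4a32, a fatty acid ω-hydroxylase gene, rose from 15.1 ± 1.25 to 29.3 ± 4.10 CPM (log2 fold change 0.95 ± 0.12, edgeR adjusted p = 0.010), although reads can be divided among the near-identical Cyp4a genes. Cpt1b, the muscle-type relative of Cpt1a, rose from 0.891 ± 0.68 to 6.84 ± 2.73 CPM (2.88 ± 0.47, edgeR adjusted p = 0.032). DESeq2 called 6 of the list and limma-voom 2, beside the 0.634% and 0.176% of all genes each tested. In the list 12 of 37 genes had an unadjusted p under 0.05, a larger share than the 4.82% of all tested genes. Of all 13619 tested genes, 6082 were positive. The log2 fold change of Gm15441, 3.65, lay beyond the list's highest, that of Cpt1b.

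By library, the mean centred log2 CPM of the PPARα targets was -0.34, -0.46, -0.38, 0.18 and -0.04 in wild type replicates 1 to 5. It was 0.31, 0.35, -0.24, 0.58 and 0.03 in knockout replicates 1 to 5. Knockout replicates 1, 2 and 4, which had the 3 highest Gm15441 levels in CPM and in TPM, also had the 3 highest list means, and wild type replicate 4, with the highest wild type level of Gm15441, had the highest wild type mean. That wild type mean lay above those of knockout replicates 3 and 5. The Gm15441 level of that library, 0.964 CPM, lay below both of theirs, 5.23 and 3.21 CPM. Wild type replicate 2, next in Gm15441 CPM among the wild types at 0.731 CPM, had the lowest list mean of all libraries, -0.46. The wild type levels of Gm15441 rest on 13.25 to 26.78 estimated reads, and the relation of Gm15441 to this list was not tested. PPARα itself (gene Ppara) was at 322.8 ± 75.9 and 316.9 ± 53.8 CPM.

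**Figure D5:**
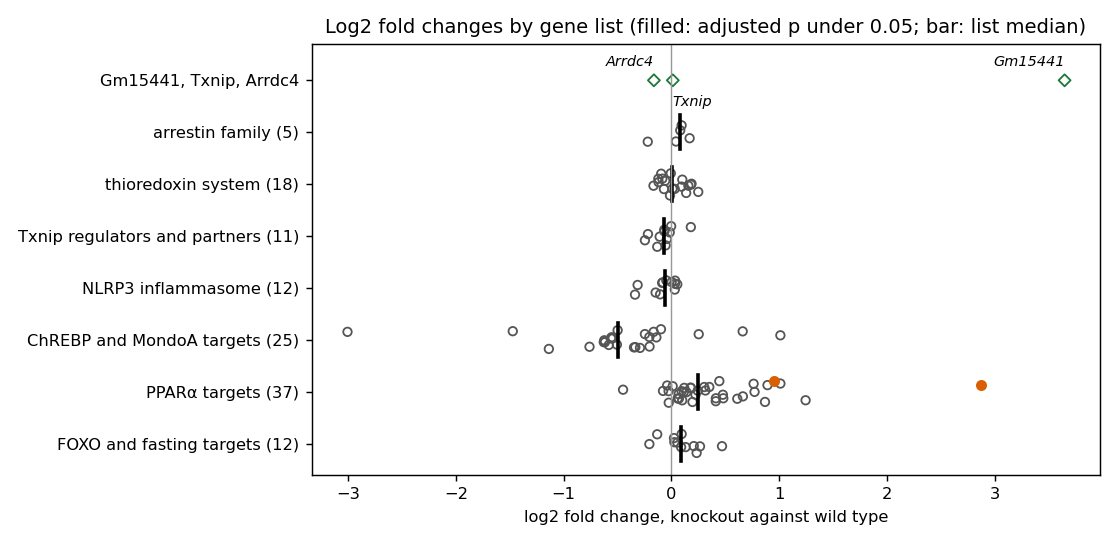
Log2 fold changes, knockout against wild type, of Gm15441, Txnip and Arrdc4 (diamonds, shown without a test) and of the measured members of 7 gene lists (circles, filled where edgeR's adjusted p was under 0.05, with the number measured in brackets and a bar at the list median). Gm15441 stands at 3.65, Txnip and Arrdc4 near 0, the ChREBP and MondoA targets have a median of -0.50 and the PPARα targets one of 0.24.

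The relatives of Txnip in the arrestin family showed no detectable difference. Of 8 other family genes 5 passed the filter, none was called by edgeR, DESeq2 or limma-voom, and 0 had an unadjusted p under 0.05. Over all tested genes edgeR called 0.132%, and 4.82% had an unadjusted p under 0.05. At those shares a list this short is likely to hold none. Arrdc3 had the highest CPM, from 209.8 to 369.5 CPM in wild type and from 163.4 to 264.6 CPM in the knockout (log2 fold change -0.22 ± 0.18). Arrdc2 was at 8.63 ± 1.38 and 9.20 ± 2.00 CPM and Arrdc1 at 2.48 ± 0.85 and 2.76 ± 0.52 CPM. The β-arrestin genes Arrb1 and Arrb2, which shut off G protein-coupled receptors, had log2 fold changes of 0.04 ± 0.17 and 0.08 ± 0.16. Arrdc5 and the visual arrestin genes Sag and Arr3 did not pass the filter.

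The partners of the Txnip protein were likewise without a call. Of 18 genes of the thioredoxin system, 9 were positive and 9 negative (median log2 fold change 0.00). None was called by edgeR, DESeq2 or limma-voom and 0 had an unadjusted p under 0.05, beside 4.82% of all tested genes. Txn1, the cytosolic thioredoxin that Txnip binds, was at 131.6 ± 12.9 and 124.1 ± 26.2 CPM, and the reductase gene Txnrd1 at 96.0 ± 9.18 and 107.0 ± 14.9 CPM (0.16 ± 0.12). Map3k5, the kinase ASK1 that thioredoxin holds inactive, was at 37.6 ± 7.24 and 42.6 ± 5.42 CPM (0.18 ± 0.14), and it is in the next list too. Of 11 genes of ubiquitin ligases, AMPK subunits and transporters that act on or with Txnip, 10 were negative (median -0.07). Of all 13619 tested genes 7537 were negative (median -0.02). None of the 11 was called by edgeR, DESeq2 or limma-voom, with 0 at an unadjusted p under 0.05. The smallest p belonged to the glucose transporter gene Slc2a2, at 366.3 ± 60.6 and 308.8 ± 36.8 CPM (-0.25 ± 0.14, edgeR adjusted p = 1.0). Itch, the ligase that marks Txnip for degradation, was at 59.0 ± 7.26 and 56.4 ± 2.46 CPM.

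Genes of the NLRP3 inflammasome, which Gm15441 and Txnip are known to affect, had 7 of 12 members negative (median log2 fold change -0.06). None of them was called by edgeR, DESeq2 or limma-voom and 0 had an unadjusted p under 0.05, beside 4.82% of all tested genes. Il1b was at 3.50 ± 2.01 and 2.78 ± 1.12 CPM (-0.34 ± 0.36) and Nlrp3 at 1.26 ± 0.65 and 1.02 ± 0.32 CPM (-0.31 ± 0.36), both low and with wide errors. Each marker list had more negative than positive values, hepatocyte markers included (8 of 9 negative, median log2 fold change -0.21). Among all 13619 tested genes 7537 were negative. Negative values were found for 10 of 10 stellate markers (median -0.32) and 6 of 7 measured lymphocyte and neutrophil markers (median -0.45). Of cholangiocyte markers 6 of 7 were negative (-0.45), of endothelial markers 9 of 10 (-0.08) and of Kupffer markers 8 of 12 (-0.02). None of these markers was called by edgeR, DESeq2 or limma-voom. At an unadjusted p under 0.05 were 2 stellate, 2 cholangiocyte and 2 lymphocyte and neutrophil markers, beside 4.82% of all tested genes. The part of the marker lists in the values of the NLRP3 list was not tested.

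The list of FOXO and fasting targets was positive in 10 of 12 (median 0.09), with none called by edgeR, DESeq2 or limma-voom. Of all 13619 tested genes 6082 were positive (median -0.02). In the list 1 of 12 genes had an unadjusted p under 0.05, beside 4.82% of all tested genes. It was the gluconeogenic gene Pck1 at 944.7 ± 71.9 and 1308 ± 452 CPM (0.47 ± 0.20, edgeR adjusted p = 0.995). Irs2, an insulin receptor substrate gene, followed at 0.26 ± 0.20.

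No gene in the surroundings of the locus was called. Of 16 other annotated genes within 100 kb of Txnip, 7 passed the filter. None of these was called by edgeR, DESeq2 or limma-voom, and 0 had an unadjusted p under 0.05. Over all tested genes edgeR called 0.132%, and 4.82% had an unadjusted p under 0.05, so 0 of 7 says little about the locus. Polr3gl, the nearest of the measured genes downstream of Txnip, was at a log2 fold change of 0.21 ± 0.14, and Hfe2, the hemojuvelin gene on the other side, at -0.09 ± 0.11. Lix1l was at -0.21 ± 0.16, Rbm8a at -0.04 ± 0.13 and 6330549D23Rik at -0.03 ± 0.34. Itga10, at 0.57 CPM in wild type, had the largest value, 0.77 ± 0.41 (edgeR adjusted p = 1.0).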

How the data were processed

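The tools named in the submitters' processing notes are fastp, HISAT and RSEM, with GRCm38.p5 as the build; their versions and strand settings were not given in the sources used. The authors deposited an expected count and a TPM value per gene and library, group means of TPM, a gene length, and their own log2 fold change and p-value, whose adjustment is not stated. The columns name the wild type libraries CON, matched to the titles by number. Values that were not whole made up 7.68% of the deposited expected counts; each count was rounded for the tests. The 4 rows without a gene were dropped. Of 27 symbols that had become dates, 26 were restored by identifier. GENCODE M21 held 51632 of 51911 identifiers.

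Counts were filtered with filterByExpr, scaled by TMM and compared by genotype with the robust quasi-likelihood test of edgeR 4.0.16 under R 4.3.3, with Benjamini-Hochberg adjustment over 13619 genes and a threshold of 0.05. Standard errors come from the F statistic. DESeq2 (1.42.0), limma-voom (limma 3.58.1), other scalings and filters, a replicate block and each library left out were alternatives. Log2 CPM used a prior count of 2 and log2 TPM a pseudocount of 0.1. Correlations used 100000 resamples, or all orders below 10 libraries (scipy 1.17.1). At a floor of 3 counts the libraries reach 0.111 to 0.146 CPM, which covers counting error only.

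The members and gene lists were chosen with earlier results of these data known. Named genes were the members, Cpt1a, list members that passed the test or else the 2 with the smallest p, all measured sugar-sensing factors and arrestin genes, measured genes within 100 kb of Txnip (1 is not reported here), and the 6 genes most like each member; marker lists are given as sums and counts. Itch, Txn1 and Ppara were named after their values were seen. Some genes are in more than 1 list. Of the ChREBP and MondoA targets, Fgf21 is also among the PPARα targets and G6pc among the FOXO and fasting targets. Slc2a2 is among the ChREBP and MondoA targets and among the genes that act on or with Txnip. The labels do not say that each sample came from its own animal, so a p-value here reflects only how these samples vary. All pairs of libraries differed beyond sampling noise (lowest chi-square per degree of freedom 27.45).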

Additional observations from a re-analysis of the deposited data

Results flagged for a closer look

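Of 34 groups of 5 values examined for a library far from the rest, 4 were picked out by the gap to its nearest neighbour; chance picks about 1 in 20. Arrdc4 in wild type replicate 4 was at 4.16 TPM against 2.84 to 3.22 TPM in the other wild type libraries. The implied mean length of Gm15441 transcripts in knockout replicate 1 was 855 bases, where the other knockouts lay between 999 and 1055 bases. That value lies inside the wild type range of 798 to 1504 bases. The list mean of ChREBP and MondoA targets was 0.873 in wild type replicate 4, the library with the highest Arrdc4 level of its genotype. The same list mean was -0.536 in knockout replicate 2, the library with the highest Gm15441 level in CPM (by TPM it was the third).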

How the results depend on the processing

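The count of changed genes, 18, lay between 16 and 26 under the other scalings, filters, edgeR settings, limma-voom and the replicate block (26), and was 101 with DESeq2. Leaving out 1 library gave between 6 and 21, falling to 9 and 6 when wild type replicate 2 or 3 was dropped, to 8 for knockout replicate 2, and to 6 for either of knockout replicates 3 and 5. In these fits the log2 fold change of Gm15441 stayed between 3.32 and 3.86. That of Txnip stayed between -0.219 and 0.13 and that of Arrdc4 between -0.283 and -0.0651. The authors' deposited value for Gm15441 was lower, at 1.49, where DESeq2 here gave 3.66. The source of that difference was not tested. The Gm15441 to Txnip ratio differed between genotypes by 3.33 to 4.0 (log2) when 1 library was left out and by 3.49 from counts per length. The correlation of Txnip with Arrdc4 turned positive on the TPM scale (0.0857), with unscaled library totals (0.0237), without the 2 libraries farthest from the median of Txnip (0.115) and without knockout replicate 1 (0.0882), the end of a range from -0.498, and it passed the threshold under none of 16 alternatives; the cause was not tested. The replicate numbers share nothing else known: same-numbered libraries correlated between -0.409 and 0.426 in their deviations, and 2 of 5 correlated best with their own number. Depth limits the wild type values of Gm15441, which rest on 13.25 to 26.78 reads, and the split of its reads from those of Txnip depends on the authors' estimation.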
